A study of Mus musculus with 2 samples.

Results

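The homologous recombination and Fanconi genes were examined as a list of 40 gene symbols, a set given by name, among the 55450 genes of the single-cell count matrices of EMT6 tumors. The EMT6 line comes from a mouse mammary carcinoma, and each BALB/c mouse was implanted with 200000 of its cells. Both groups received LLY-283, an inhibitor of the arginine methyltransferase PRMT5, at 50 mg/kg in cycles of 3 days of dosing and 4 days of rest, together with the PARP inhibitor Olaparib at 50 mg/kg. The Combo group also received anti-PD-1 antibody, 200 µg at 3-day intervals. Each group is 1 library made from 3 pooled mice, and no library of untreated tumors was analysed, so no value here measures the effect of LLY-283 or Olaparib. The questions are how the 40 genes are distributed over the cell cycle and the cell types of these tumors, and whether the tumor cells of the 2 libraries differ in them.

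Homologous recombination repairs a DNA double-strand break, or a fork that has collapsed, by copying the sister chromatid. ATM and ATR signal the damage, MRE11, RAD50, NBN and CtIP cut the ends back, BRCA1 and PALB2 bring in BRCA2, and BRCA2 prepares the single strand for pairing with the sister. The Fanconi proteins sense crosslinks that block replication, and their core complex ubiquitinates FANCD2 and FANCI so that nucleases can cut the crosslink out. PARP inhibitors are known for killing cells that lack this pathway, because trapped PARP leaves lesions that need it.

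In Olaparib + LLY-283, 16115 cells carried 147214934 unique molecular identifiers (UMIs, 1 per captured transcript), and in Combo 7542 cells carried 162522700. The 2 libraries shared 39 cell barcodes, 25 of them among the cells kept. After filtering, 10712 and 2546 cells were tumor-like, with median depths of 8638 and 48992 UMIs, a gap that stands beside every comparison of the libraries. Tumor-like cells held Krt8 at 802 and 789.6 counts per 1000000 UMIs (CPM), whereas Epcam, the usual epithelial marker, was at only 3.45 and 3.11 CPM and the leukocyte gene Ptprc at 2.44 and 3.42 CPM. The tumor-like class joins 11 clusters, and the largest of them differed between libraries (1666 cells of cluster 0 in Olaparib + LLY-283, 423 cells of cluster 14 in Combo). Each level is the CPM of a gene summed over the cells of a class, from reads of the 3′ end, whose capture differs between genes, so levels are compared between cells and not between genes. With 1 library per group there is no test, and the 95% intervals given are exact and cover counting error only.

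All 40 genes were detected in tumor-like cells, at low levels. Together they held 449 CPM in Olaparib + LLY-283 and 521 CPM in Combo. Single genes ranged from 1.01 CPM (Xrcc3 in Olaparib + LLY-283) to 70.5 CPM (Rad50 in Combo). When each tumor-like cell was thinned to 3000 UMIs and the 746 and 41 shallower cells were left out, a cell held a UMI of 1.22 and 1.35 of the 40 genes on average, and 33.0% and 31.4% of cells held none. The levels below are therefore sums over cells.

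Tumor-like cells were assigned to phases by scores of 31 S and 54 G2M genes that hold none of the 40 members. In Olaparib + LLY-283, 4674, 2870 and 3168 cells were called G1, S and G2M, and in Combo 1222, 621 and 703. Mki67, a proliferation gene that is itself among the G2M scoring genes and so is no check of the calls, was at 14.4, 66.6 and 245 CPM in G1, S and G2M cells of Olaparib + LLY-283 and at 11.9, 83.9 and 291 CPM in those of Combo. Depth moved with phase, from a median of 6974 UMIs in G1 to 11452 in G2M in Olaparib + LLY-283 and from 40331 to 61611 in Combo.

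The 40 genes together were lowest in G1 in both libraries. Their summed level was 248, 567 and 537 CPM in G1, S and G2M cells of Olaparib + LLY-283 and 276, 727 and 624 CPM in those of Combo. S over G1 was 2.28-fold (95% interval 2.23 to 2.34) and 2.64-fold (95% interval 2.58 to 2.69) in the 2 libraries, and G2M over G1 was 2.16-fold (95% interval 2.11 to 2.22) and 2.26-fold (95% interval 2.21 to 2.31). Of the members with at least 100 UMIs in the cells compared, 26 of 35 in Olaparib + LLY-283 and 30 of 39 in Combo were at least 1.5-fold higher in S than in G1, against 8.22% and 10.6% of all genes tested. In G2M the counts were 29 of 38 and 28 of 39, against 7.99% and 9.74%. With all tumor-like cells, no member was at least 1.5-fold lower in S or G2M in either library, where 4.32% and 9.2% of all genes were lower in S and 5.37% and 8.42% lower in G2M. The median member was 2.45- and 3.26-fold higher in S, and the median of all genes tested was 1.00 and 0.973. Over all 40 members, with no minimum of UMIs, 30 were at least 1.5-fold higher in S in both libraries. Among genes with at least 100 UMIs in both libraries, 25 of 35 members were higher in S in both, against 7.28% of all genes, and 27 of 38 in G2M, against 6.98%.

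**Figure D1:**
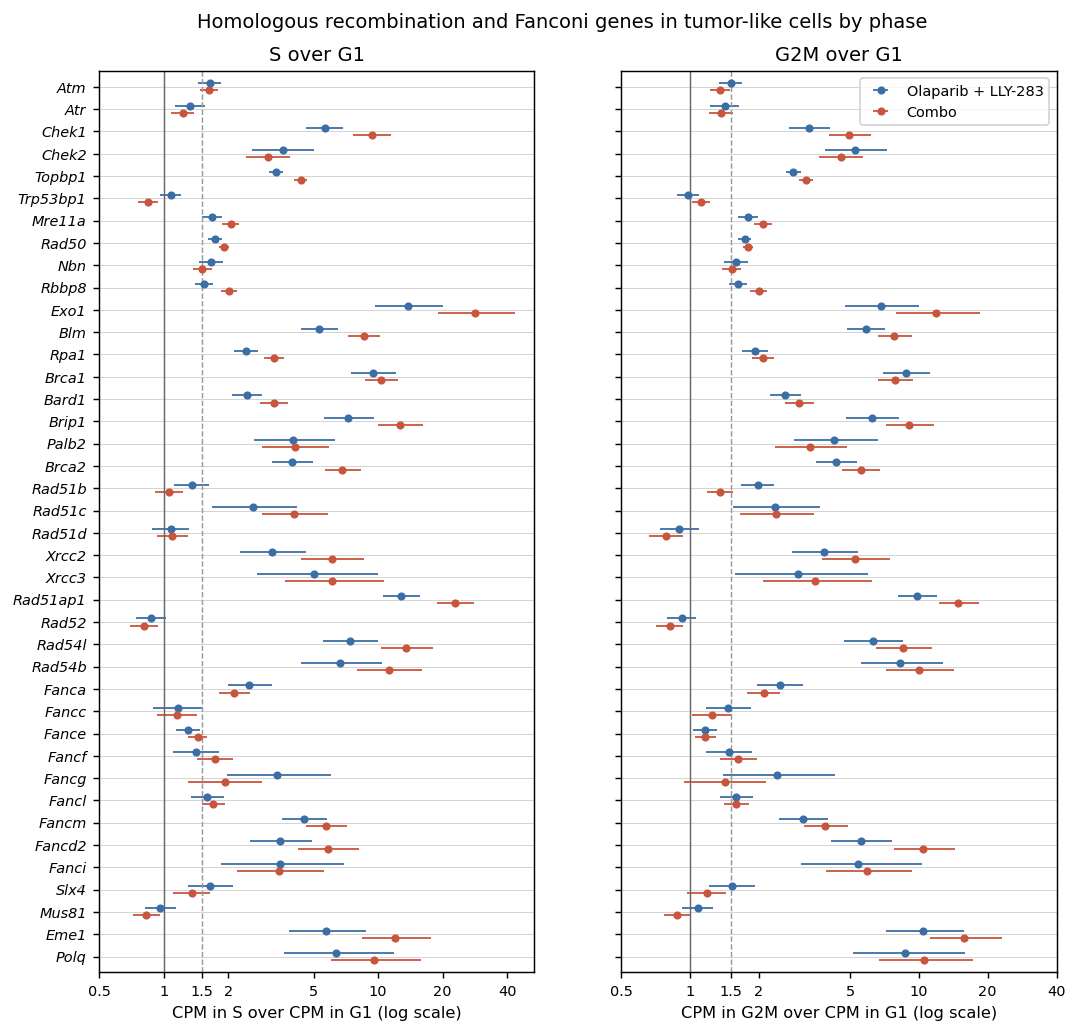
Level of each of the 40 genes in S (left) and G2M (right) over that in G1, in tumor-like cells of each library, on a log axis, ordered by role. Points are ratios of CPM and bars exact 95% counting intervals, the solid line is 1 and the dashed line 1.5. Exo1 and Rad51ap1 lie farthest to the right in S, and Rad52, Rad51d and Mus81 lie near 1 in both panels.

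Among the checkpoint kinases, Chek1 and Chek2 moved with the cycle and Atm and Atr far less. Chek1, the kinase that ATR activates at stalled forks, was at 3.33, 18.7 and 11 CPM in G1, S and G2M cells of Olaparib + LLY-283 and 2.29, 21.3 and 11.4 CPM in those of Combo. It was 5.63-fold (95% interval 4.63 to 6.89) and 9.33-fold (95% interval 7.66 to 11.5) higher in S than in G1, and its G2M level was lower than its S level, at 0.588 (0.519 to 0.664) and 0.533 (0.475 to 0.596) times. Chek2, the kinase that ATM activates, had the opposite order, at 1.34, 4.81 and 7.05 CPM, and 2.11, 6.45 and 9.58 CPM in Combo. Its G2M level was 1.47 (1.20 to 1.79) and 1.49 (1.27 to 1.75) times its S level. Atm was 1.64- and 1.62-fold and Atr 1.32- and 1.22-fold higher in S, both with intervals above 1. The mediators Topbp1 and Trp53bp1 also differed from each other. Topbp1, the activator of ATR, was at 23.9, 79.6 and 67.6 CPM, and 22.4, 97.3 and 71.9 CPM in Combo. Trp53bp1, which protects ends from resection and favors end joining, stayed within 16.0 to 21.1 CPM over all phases of both libraries.

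The resection genes differed in how far S exceeded G1. Mre11a, Rad50, Nbn and Rbbp8 (CtIP), which make the first cut, had S over G1 ratios between 1.51 and 2.05 in both libraries and were already at 11.4 to 46.3 CPM in G1. Exo1, the nuclease that extends the resected strand, was at 0.912, 12.6 and 6.20 CPM in G1, S and G2M cells of Olaparib + LLY-283 and 0.521, 14.7 and 6.21 CPM in those of Combo. Its S over G1 ratio was the largest of the list in each library, 13.8-fold (95% interval 9.68 to 20.2) and 28.3-fold (95% interval 19.1 to 43.7), and rests on 34 and 26 UMIs in G1. Blm, the helicase that unwinds the ends and dissolves joined chromatids, was 5.32- and 8.60-fold higher in S and 5.85- and 7.82-fold higher in G2M. Rpa1, which coats the exposed strand, was at 9.23, 22.4 and 17.6 CPM, and 9.90, 32.2 and 20.5 CPM in Combo, highest in S in both libraries.

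Of Brca1, Brca2 and their partners, only Brca1 and Brip1 were at least 5-fold higher in S than in G1 in both libraries. The summed level of the set was 13.5, 62.3 and 61.3 CPM in G1, S and G2M cells of Olaparib + LLY-283 and 13.2, 88.5 and 70.2 CPM in Combo. Brca1 (chr11:101488764-101551955, mm10, minus strand) was at 2.12, 20.0 and 18.6 CPM in G1, S and G2M cells of Olaparib + LLY-283 and 2.95, 30.6 and 23.2 CPM in those of Combo. S over G1 was 9.46-fold (95% interval 7.47 to 12.1) and 10.4-fold (95% interval 8.73 to 12.4). Brca2, a breast cancer susceptibility gene like Brca1, was at 3.00, 11.9 and 13.1 CPM, and 2.59, 17.6 and 14.4 CPM in Combo, and Brip1, the helicase that binds BRCA1, at 1.77, 12.8 and 11 CPM, and 1.56, 19.8 and 14.2 CPM in Combo. Bard1, the partner of BRCA1 in its ubiquitin ligase, was present in G1 at 5.87 and 5.21 CPM and was 2.45- and 3.26-fold higher in S, less than Brca1 in both libraries. Palb2, the bridge to BRCA2, was 4.01- and 4.1-fold higher at levels that did not exceed 3.53 CPM.

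Rad51b, Rad51c, Rad51d, Xrcc2 and Xrcc3, paralogs whose proteins form complexes in homologous recombination, differed from one another over the cycle. Rad51c, Xrcc2 and Xrcc3 were 2.61- and 4.06-fold, 3.21- and 6.07-fold and 5.02- and 6.11-fold higher in S than in G1. Rad51b was higher in G2M than in S, at 1.46 (1.25 to 1.72) and 1.28 (1.11 to 1.48) times. Rad51d was at 5.61, 6.02 and 5.01 CPM, and 6.78, 7.44 and 5.30 CPM in Combo, and its ratios were under 1.5-fold in both phases and both libraries. Among the genes of strand exchange, Rad51ap1, which promotes strand invasion, was at 2.98, 38.3 and 29.3 CPM in G1, S and G2M cells of Olaparib + LLY-283 and 2.13, 48.5 and 31.6 CPM in those of Combo. It was 12.9-fold (95% interval 10.6 to 15.8) and 22.8-fold (95% interval 18.8 to 28.0) higher in S. Rad54l and Rad54b, motor proteins of strand exchange, were 7.37- and 13.5-fold and 6.64- and 11.2-fold higher. Rad52, known for annealing, was at 9.84, 8.54 and 9.04 CPM, and 9.80, 7.92 and 7.96 CPM in Combo, and every ratio of it to G1 was below 1. Its S over G1 ratio was 0.867-fold (95% interval 0.738 to 1.02) and 0.808-fold (95% interval 0.697 to 0.935), so that its interval reached 1 in Olaparib + LLY-283 and did not in Combo.

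**Figure D2:**
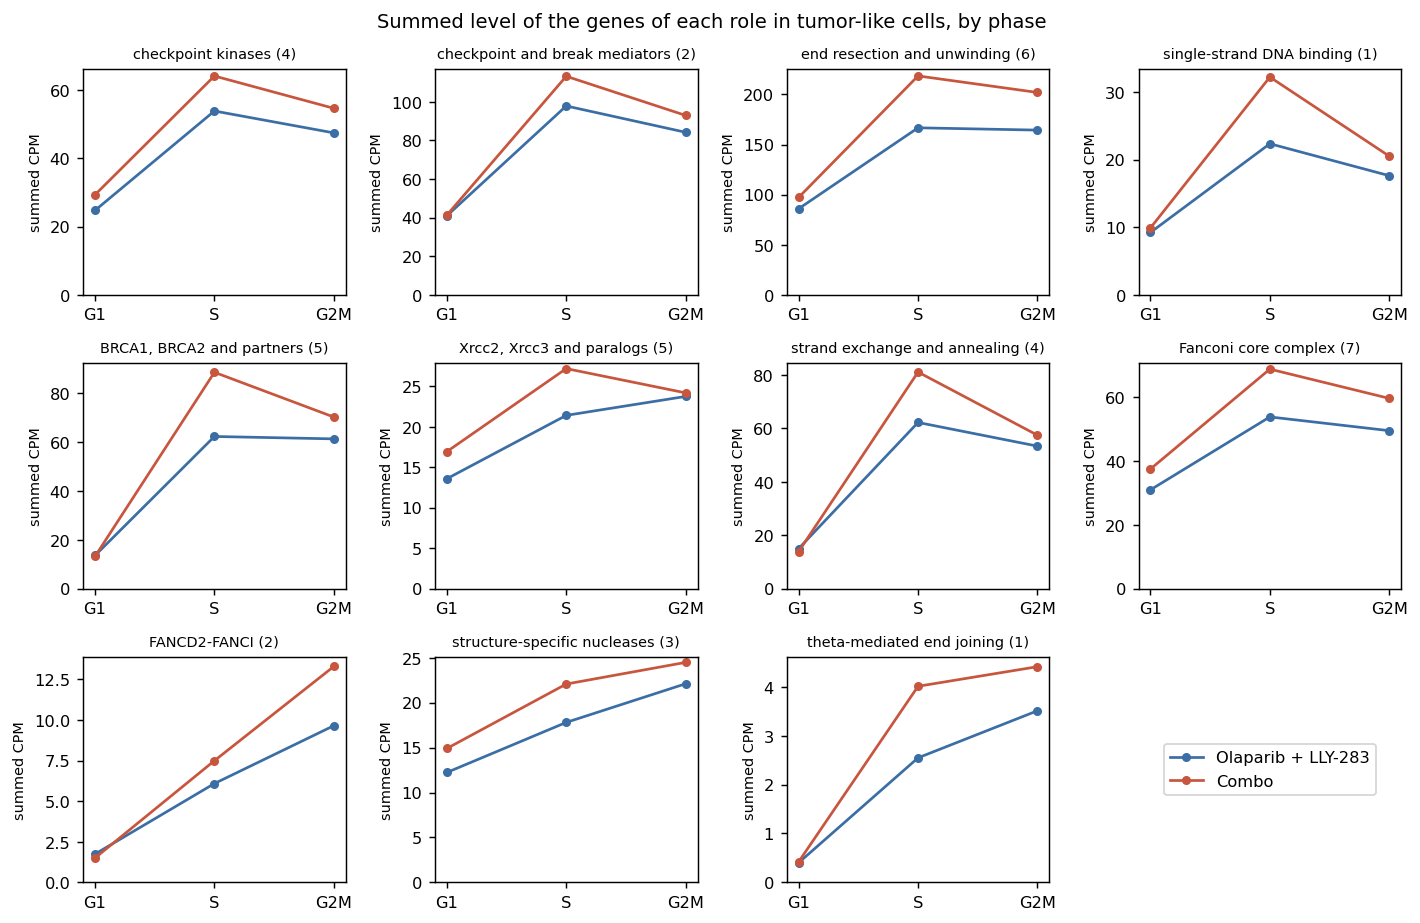
Summed CPM of the genes of each role in G1, S and G2M tumor-like cells, with the number of genes in parentheses, 1 line per library and each vertical axis starting at 0. The BRCA1 and BRCA2 set is lowest in G1, and FANCD2-FANCI, at 9.64 and 13.3 CPM in G2M, is higher in G2M than in S in both libraries.

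Summed, the Fanconi core genes were highest in S and their substrates Fancd2 and Fanci in G2M, and the core genes differed among themselves. The 7 core genes summed to 1.74-fold (1.61 to 1.88) higher in S than in G1 in Olaparib + LLY-283 and 1.84-fold (1.73 to 1.95) in Combo. Within them, Fancm, the translocase that anchors the complex on DNA, was 4.52- and 5.71-fold higher. Fanca was 2.51- and 2.14-fold and Fancg 3.38- and 1.93-fold higher. Fancl, the ubiquitin ligase subunit, was 1.59- and 1.70-fold higher, Fancf 1.41- and 1.74-fold, Fance 1.3- and 1.44-fold and Fancc 1.16- and 1.15-fold. Fancd2 was at 1.37, 4.78 and 7.61 CPM in G1, S and G2M cells of Olaparib + LLY-283 and 0.962, 5.62 and 10.1 CPM in those of Combo, and Fanci, its partner, at 0.376, 1.31 and 2.04 CPM, and 0.541, 1.87 and 3.21 CPM in Combo. For both, G2M exceeded S: the ratio was 1.59 (1.31 to 1.95) and 1.79 (1.52 to 2.12) for Fancd2 and 1.56 (1.06 to 2.32) and 1.71 (1.28 to 2.32) for Fanci.

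Of the structure-specific nucleases, which cut joined or crosslinked DNA, only Eme1 followed the cycle closely. Eme1 was at 0.805, 4.62 and 8.40 CPM, and 0.682, 8.19 and 10.8 CPM in Combo, whereas Mus81, the catalytic partner that Eme1 binds, was at 8.26, 7.96 and 8.90 CPM, and 10.1, 8.40 and 8.92 CPM in Combo. Eme1 was 10.4-fold (95% interval 7.19 to 15.7) and 15.8-fold (95% interval 11.1 to 23.1) higher in G2M than in G1, and Mus81 1.08- and 0.879-fold. Slx4, the scaffold that holds the nucleases, was 1.65- and 1.35-fold higher in S. Polq, the polymerase of theta-mediated end joining and the back-up route when homologous recombination fails, was at 0.402, 2.55 and 3.51 CPM in G1, S and G2M cells of Olaparib + LLY-283 and 0.421, 4.01 and 4.41 CPM in those of Combo, from 15 and 21 UMIs in G1. It was 8.73-fold (95% interval 5.13 to 16.0) and 10.5-fold (95% interval 6.67 to 17.3) higher in G2M.

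Over the list, 9 members were higher in S than in G2M in both libraries with intervals below 1: Chek1, Topbp1, Exo1, Rpa1, Brip1, Xrcc3, Rad51ap1, Rad54l and Fancm. For 5 the order was the reverse (Chek2, Rad51b, Fancd2, Fanci and Eme1), and for the remaining genes the 2 phases were not separated by the counts of both libraries. The 7 members that stayed within 1.5-fold of G1 in both phases of both libraries were Atr, Trp53bp1, Rad51d, Rad52, Fancc, Fance and Mus81. The shares of all genes with these orders, or within 1.5-fold in this way, were not counted. The ratio of S to G1 was larger in Combo for 27 of 40 members, and for 9 of them (Chek1, Topbp1, Rbbp8, Blm, Rpa1, Brip1, Brca2, Rad51ap1 and Rad54l) the intervals of the libraries did not overlap. Neither count was made over all genes. Of all genes tested, more passed 1.5-fold in Combo than in Olaparib + LLY-283, both higher in S (10.6% and 8.22%) and lower (9.2% and 4.32%). The deeper Combo cells moved with the larger ratios. With phases called after cells of at least 3000 UMIs were thinned to that depth, the summed ratio was 2.13 in Olaparib + LLY-283 and 2.33 in Combo. The 746 and 41 shallower cells were left out of these ratios.

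The shares of cells with a UMI were compared at equal depth. After thinning to 3000 UMIs, Rad51ap1 was seen in 0.729% (0.496 to 1.03) of G1 cells and 10.0% (8.93 to 11.2) of S cells of Olaparib + LLY-283, with exact Clopper-Pearson intervals, and in 0.581% (0.234 to 1.19) and 12.3% (9.78 to 15.1) of those of Combo. Without thinning the shares were 2.31% and 26.7% in Olaparib + LLY-283 and 7.86% and 69.9% in Combo, where cells are deeper. Brca1 was seen in 0.635% (0.419 to 0.923) and 5.30% (4.48 to 6.21) in Olaparib + LLY-283 and in 0.831% (0.399 to 1.52) and 8.84% (6.71 to 11.4) in Combo. Rad52 was seen in 3.01% (2.52 to 3.57) and 2.15% (1.64 to 2.77) in Olaparib + LLY-283 and in 3.07% (2.17 to 4.21) and 3.27% (2.01 to 5.01) in Combo, with overlapping intervals in both libraries. Of the neutrophil-like cells, 80 in Combo reached 3000 UMIs (median 3450). Rad51ap1, Brca1 and Rad52 were each seen in 0 of these 80 cells, which allows a share of up to 3.75% (3 counts of the total). The G1 shares of Brca1, Rad51ap1 and Rad52 are below that limit, so these counts of 0 do not separate neutrophil-like cells from G1 tumor-like cells. In S cells of Combo the shares of Rad51ap1 (12.3%) and Brca1 (8.84%) are above the limit, and that of Rad52 (3.27%) is below it. Other members were seen in the same 80 cells, with Topbp1, Mre11a and Nbn in 4 cells each. In Olaparib + LLY-283 only 3 neutrophil-like cells reached 3000 UMIs. The share of tumor-like cells with UMIs of 3 or more members was 3.88%, 21.5% and 20.5% in G1, S and G2M of Olaparib + LLY-283 and 4.32%, 31.8% and 27.1% in Combo.

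Other repair genes were counted by list, beside 8.22% and 10.6% of all genes tested that were at least 1.5-fold higher in S in the 2 libraries. Of 41 further homologous recombination and Fanconi genes, 21 of 40 and 25 of 41 were at least 1.5-fold higher in S in the 2 libraries, led by Clspn (17.6- and 32.9-fold), the adaptor of CHEK1, and Fancb (8.79- and 17.1-fold), a subunit of the Fanconi core complex. Of the mismatch repair genes, 5 of 7 and 6 of 7 were higher in S, with Msh6 at 3.07- and 3.58-fold. Base excision repair gave 6 of 14 and 8 of 15, led by the glycosylases Neil3 (9.59- and 18.1-fold) and Ung (6.04- and 12.3-fold) and the flap nuclease Fen1 (5.59- and 8.37-fold). Non-homologous end joining, which needs no sister chromatid, gave 2 of 10 and 1 of 10, with Xrcc6 (Ku70) at 1.82- and 1.90-fold and Paxx, a factor that binds Ku, at 0.727- and 0.666-fold. Nucleotide excision repair gave 0 of 12 and 1 of 12, the latter being Ddb2. The end joining and nucleotide excision lists are too short to tell their counts from the shares of all genes. The median ratio of S to G1 was 2.45 and 3.26 for the 40 members, 1.57 and 1.62 for the further genes of the pathway, 1.89 and 2.05 for mismatch repair, 1.3 and 1.65 for base excision, 1.09 and 1.01 for end joining and 1.10 and 1.04 for nucleotide excision.

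Because many members moved together, the letters before their starts were read from RefSeq promoters (GRCm38.p6, 250 bases before to 50 after each start). 32 of the 40 genes matched, with 35 promoters, and Rad50, Nbn, Rbbp8, Exo1, Rad51d, Xrcc2, Rad54b and Fancd2 had no entry. E2F factors control many S phase genes, and their core was searched on both strands as TTTGGCGC, TTTCCCGC, TTTCGCGC or TTTGCCGC. It stood in 7 of 35 member promoters (20.0%) and in 2.27% of all 32851 promoters of the table. The 6 genes were Bard1, Brca2, Chek2, Fancg, Rad51c and Topbp1, and none was among the 9 matched genes that were at least 5-fold higher in S in both libraries (Blm, Brca1, Brip1, Chek1, Eme1, Polq, Rad51ap1, Rad54l and Xrcc3). The stretches that lie before the start are shown for the 5 genes that have one there, in the direction of the gene, with the core in capitals.
Bard1, chr1:71103148-71103207, - strand, from 235 to 176 bases before the start: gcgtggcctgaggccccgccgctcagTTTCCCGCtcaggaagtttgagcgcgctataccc
Brca2, chr5:150522427-150522486, + strand, from 194 to 135 bases before the start: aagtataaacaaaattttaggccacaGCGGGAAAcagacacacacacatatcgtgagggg
Chek2, chr5:110839805-110839864, + strand, from 178 to 119 bases before the start: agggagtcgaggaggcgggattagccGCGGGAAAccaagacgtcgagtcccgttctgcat
Fancg, chr4:43010320-43010379, - strand, from 78 to 19 bases before the start: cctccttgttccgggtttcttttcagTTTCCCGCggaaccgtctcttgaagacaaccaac
Topbp1, chr9:103305172-103305231, + strand, from 155 to 96 bases before the start: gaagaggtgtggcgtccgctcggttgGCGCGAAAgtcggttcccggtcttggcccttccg

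The CCAAT box, bound by NF-Y (CCAAT or ATTGG), stood in 20 of 35 member promoters (57.1%) and in 37.4% of all. It stood in 6 of the 9 matched genes at least 5-fold higher in S and in 5 of the 9 matched genes that stayed under 1.5-fold in both phases in at least 1 library. The CHR element of G2 and mitosis genes (TTTGAA or TTCGAA, both strands) stood in 5 (14.3%) and in 19.2% of all. A match is a description of letters and no match says only that these letters are not in the window. The stretches with a CCAAT box in capitals are shown for 4 genes with large S over G1 ratios.
Blm, chr7:80535129-80535185, - strand, from 187 to 131 bases before the start: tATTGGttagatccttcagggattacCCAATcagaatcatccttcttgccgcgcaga
Brca1, chr11:101552011-101552067, - strand, from 112 to 56 bases before the start: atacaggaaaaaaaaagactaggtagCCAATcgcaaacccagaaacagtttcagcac
Brip1, chr11:86201197-86201253, - strand, from 60 to 4 bases before the start: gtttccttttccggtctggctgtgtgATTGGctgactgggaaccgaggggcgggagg
Rad51ap1, chr6:126939593-126939649, - strand, from 62 to 6 bases before the start: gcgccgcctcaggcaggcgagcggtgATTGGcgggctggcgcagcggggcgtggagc

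Between the libraries, no member differed by 1.5-fold in tumor-like cells. The summed level in Combo was 1.16 (1.15 to 1.18) times that in Olaparib + LLY-283. In each direction 0 of 40 members passed that fold, against 4.54% of all genes higher in Combo and 2.19% lower. Of the 40 ratios, 37 were above 1, as were 62.4% of all genes tested, and 29 had an interval above 1, 11 spanned 1 and none lay below it. Such intervals were not counted over all genes. The median member was 1.14 and the median of all genes 1.05. The largest ratios were those of Fancl, at 8.53 and 12.3 CPM in Olaparib + LLY-283 and Combo or 1.44 (1.33 to 1.56), Fanci (1.42, 1.15 to 1.76), Rad50 (1.39, 1.34 to 1.44) and Rad54b (1.39, 1.23 to 1.57). Brca1 was at 13.5 and 17.6 CPM, a ratio of 1.31 (1.22 to 1.40), and Brca2 at 9.38 and 10.8 CPM, a ratio of 1.15 (1.06 to 1.25). Rad52 (0.944, 0.866 to 1.03), Palb2 (0.953, 0.806 to 1.13) and Xrcc2 (0.998, 0.869 to 1.15) were the lowest. Treatment, mice and library cannot be told apart in these ratios.

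Within phases, the summed ratio of Combo to Olaparib + LLY-283 was 1.11 (1.08 to 1.14) in G1, 1.28 (1.26 to 1.31) in S and 1.16 (1.14 to 1.18) in G2M cells. In S cells, 7 of 40 members were at least 1.5-fold higher in Combo and 0 lower, against 3.14% and 2.07% of all genes. The 7 were Brca1, Brip1, Rad51c, Rad54b, Fancl, Eme1 and Polq, with Rad54b the largest at 1.82 (1.5 to 2.22). In G2M cells 1 of 40 was higher and 0 lower, against 3.21% and 2.09%. In G1 cells 2 of 29 with at least 100 UMIs were higher and 0 lower, against 4.29% and 1.77%: Chek2 at 1.57 (1.11 to 2.25) and Fanca at 1.57 (1.24 to 2.00). Of all 40, 14 had an interval above 1 in G1, among them Brca1 at 1.39 (1.05 to 1.85), and 3 had one below 1, Exo1 at 0.572 (0.329 to 0.981), Chek1 at 0.687 (0.528 to 0.893) and Rad51ap1 at 0.714 (0.542 to 0.94). In S cells 27 had an interval above 1 and 1 had one below, Trp53bp1 at 0.872 (0.776 to 0.98). In G2M cells 22 had one above and 0 below. The shares of all genes with such intervals were not counted in any phase. Weighted to the same phase shares in both libraries, the median member was 1.18 and the median of all genes 1.05. The summed ratio was below 1 in a window of depth. Among tumor-like cells with 5000 to 30000 UMIs, 8339 in Olaparib + LLY-283 and 346 in Combo, it was 0.726 (0.697 to 0.757), with 18 of 40 members at least 1.5-fold lower and 1 higher, against 7.88% and 15% of all genes. In that window 40.4% and 77.5% of cells were G1, and the ratio within phases was 1.08 (1.02 to 1.14) in G1, 1.18 (1.07 to 1.3) in S and 0.985 (0.892 to 1.09) in G2M cells, the last 2 from 32 and 46 Combo cells. With tumor-like cells of at least 3000 UMIs thinned to that depth, and shallower cells left out, the summed ratio was 1.12. Markers of other cells within the tumor-like class differed in both directions. The 10 macrophage, 8 neutrophil and 8 CAF markers summed to 82.4, 171 and 640.4 CPM in Olaparib + LLY-283 and 96.4, 234 and 685 CPM in Combo, and the monocyte, DC, T, B and osteoclast lists were also higher in Combo. The NK, endothelial, myogenic and mast lists were lower, at 0.825, 0.917, 0.905 and 0.241 times, and the part of these cells in the ratios was not tested.

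**Figure D3:**
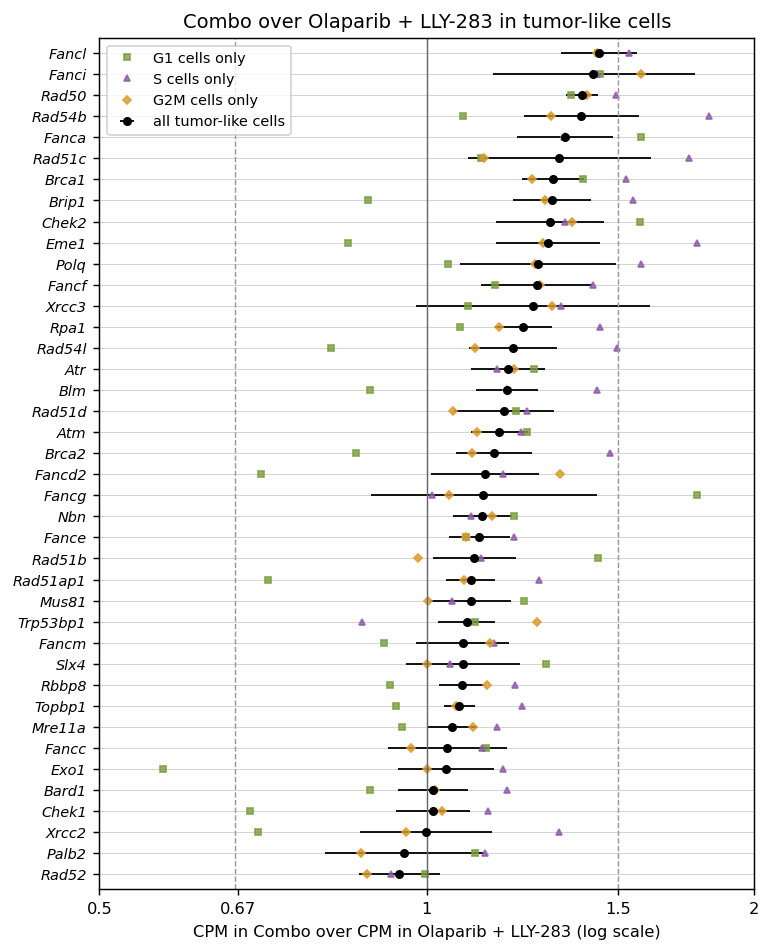
CPM of each of the 40 genes in tumor-like cells of Combo over that in Olaparib + LLY-283, on a log axis, sorted. Black points are all tumor-like cells with exact 95% counting intervals, colored symbols are G1, S or G2M cells alone, the solid line is 1 and dashed lines mark 1.5-fold. All black points lie between the dashed lines, and S cells lie right of the G1 cells for Exo1, Chek1, Rad51ap1 and Eme1.

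In the other cell classes, the tumor gene Krt8 was used as a measure of free tumor RNA. A member whose ratio to tumor-like cells has an interval that overlaps that of Krt8 is not separated from such RNA. With few UMIs an overlap is likely at any level, so it does not show that a member is background. Krt8 is itself 1 of the 5 tumor markers used to name tumor-like clusters against the macrophage/monocyte-like cluster. Its ratio in that class is therefore low in part by that choice. The share of all genes above the ratio of Krt8 was not counted in any class. In macrophage/monocyte-like cells (1038 and 697 cells) the 40 genes summed to 277 and 325 CPM, or 0.617 (0.571 to 0.666) and 0.624 (0.6 to 0.649) of the tumor-like level, while Krt8 was at 0.241 (0.220 to 0.264) and 0.122 (0.114 to 0.131). In Combo, with a median depth of 10648 UMIs, 38 of 40 members had an interval above that of Krt8, all but Chek1 and Xrcc2. In Olaparib + LLY-283, with 1920 UMIs, 21 had, and Fancd2 had 0 UMIs, which allows up to 1.23 CPM. The 40 genes held 2615 UMIs in these cells of Combo and 674 in those of Olaparib + LLY-283, so the 2 counts are not alike in resolution. In these cells of Combo, Fancg, a core complex subunit, was the only member whose ratio to its tumor-like level had an interval above 1. It was at 4.23 against 1.27 CPM, or 3.34 (95% interval 2.24 to 4.86) times. In Olaparib + LLY-283 it was at 2.06 against 1.12 CPM, from 5 UMIs, or 1.83 (95% interval 0.585 to 4.39) times. Rpa1 was close to its tumor-like level, at 1.02 (95% interval 0.725 to 1.39) and 1.09 (95% interval 0.925 to 1.27) times, as was Rad51d at 0.748 (95% interval 0.357 to 1.39) and 0.942 (95% interval 0.691 to 1.26). Chek1 was the farthest below in Combo, at 0.185 (95% interval 0.106 to 0.302), an interval that includes that of Krt8.

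Macrophage/monocyte-like cells were scored for phase apart from the tumor-like cells. The summed level of the 40 genes was 225, 324 and 389 CPM in cells called G1, S and G2M in Olaparib + LLY-283 and 247, 471 and 675 CPM in Combo. Mki67 was at 25.4, 61.5 and 244 CPM in the same cells of Olaparib + LLY-283 and at 27.7, 75.1 and 747 CPM in Combo. Mki67 is a scoring gene here too. Krt8 was at 187, 181 and 262 CPM over the phases in Olaparib + LLY-283, highest in G2M as were the 40 genes, and the macrophage gene C1qa at 2723, 2508 and 1972 CPM. The part of tumor RNA in the G2M level there was not tested. Krt8 was at 93.1, 109.6 and 90.9 CPM over the phases in Combo, where 44 cells were called G2M. In Combo, Brip1 was 15.5-fold (95% interval 6.70 to 41.8), Rad51ap1 6.81-fold (95% interval 3.76 to 12.8) and Topbp1 3.03-fold (95% interval 2.32 to 3.95) higher in S than in G1, whereas Rad50 was at 1.16-fold (95% interval 0.883 to 1.5).

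Neutrophil-like cells held 233 (193 to 279.8) and 182 (167 to 199) CPM, and in Olaparib + LLY-283 this interval overlapped that of macrophage/monocyte-like cells (257 to 299). Relative to tumor-like cells this was 0.520 (0.429 to 0.624) and 0.349 (0.319 to 0.381), beside Krt8 at 0.474 (0.409 to 0.547) and 0.267 (0.246 to 0.289). The proliferation genes Mki67 and Top2a were at 62.3 and 92.5 CPM in neutrophil-like cells of Olaparib + LLY-283 and 40.9 and 70.6 CPM in those of Combo. In tumor-like cells they were at 117 and 195 CPM and at 126 and 219 CPM. The source of these transcripts in neutrophil-like cells was not tested. In Olaparib + LLY-283, the interval of each of the 40 members overlapped that of Krt8 or held no UMI. All 40 together had 116 UMIs there, too few to separate single members from Krt8. In Combo, with 503 UMIs, 6 had an interval above that of Krt8, Mre11a, Nbn, Rbbp8, Rpa1, Rad51d and Mus81, at 0.440, 0.483, 0.557, 0.457, 0.839 and 0.588 times their tumor-like level. Most neutrophil-like cells were in different clusters in the 2 libraries (655 in cluster 9 of Olaparib + LLY-283 and 1050 in cluster 8 of Combo), and the ratio in Olaparib + LLY-283 was 0.891 and in Combo 0.565 when called doublets were kept. The order of the 2 classes in Olaparib + LLY-283 was then reversed, at 404 CPM in neutrophil-like and 319 CPM in macrophage/monocyte-like cells, and likewise with classes from marker UMIs, at 329 and 280.2 CPM.

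The smaller classes have few cells. DC-like cells (76 and 41) held 306 (227 to 403) and 519 (454 to 590.4) CPM, with Mki67 at 30.6 and 122 CPM. In Combo, Atr, Rbbp8, Brip1 and Palb2 were above their tumor-like level in them, at 2.48 (95% interval 1.32 to 4.26), 1.78 (95% interval 1.14 to 2.65), 2.27 (95% interval 1.13 to 4.07) and 5.91 (95% interval 2.15 to 13) times. T/NK-like cells (93 and 71) held 444 and 463 CPM, with Krt8 still at 0.579 (0.467 to 0.709) and 0.222 (0.180 to 0.270) of the tumor-like level and Mki67 at 119.8 and 83.9 CPM. Atr was 2.86 (95% interval 1.72 to 4.48) times its tumor-like level there in Combo. CAF-like cells (259 and 69) held 328 and 407 CPM, and Slx4 was above its tumor-like level in both libraries, at 2.10 (95% interval 1.08 to 3.70) and 2.03 (95% interval 1.10 to 3.43) times. Endothelial-like cells (44 and 14) held 297 and 406 CPM, myogenic-like cells (43 and 51) 402 and 302 CPM and osteoclast-like cells (71 and 21) 464 and 288 CPM. Mki67 was at 54.2 and 103 CPM in CAF-like, 119.5 and 15.05 CPM in endothelial-like, 69.9 and 244.8 CPM in myogenic-like and 92.8 and 56.0 CPM in osteoclast-like cells. In endothelial-like cells of Olaparib + LLY-283, Krt8 was at 0.75 (0.634 to 0.883) and the 40 genes at 0.661 (0.517 to 0.833) of the tumor-like level, no higher than Krt8. The other intervals above 1 were those of Rpa1 in T/NK-like cells of Olaparib + LLY-283 (2.47, 1.07 to 4.88) and, in Combo, of Fance in CAF-like (1.53, 1.07 to 2.12), Rad51ap1 in endothelial-like (3.28, 1.64 to 5.88) and Chek2 in osteoclast-like cells (4.11, 1.87 to 7.84). They rest on 8, 36, 11 and 9 UMIs. Slx4 in CAF-like cells was the only member and class with an interval above 1 in both libraries. Such intervals were not counted over all genes, and with 40 genes in each class some can lie above 1 by counting error alone.

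**Figure D4:**
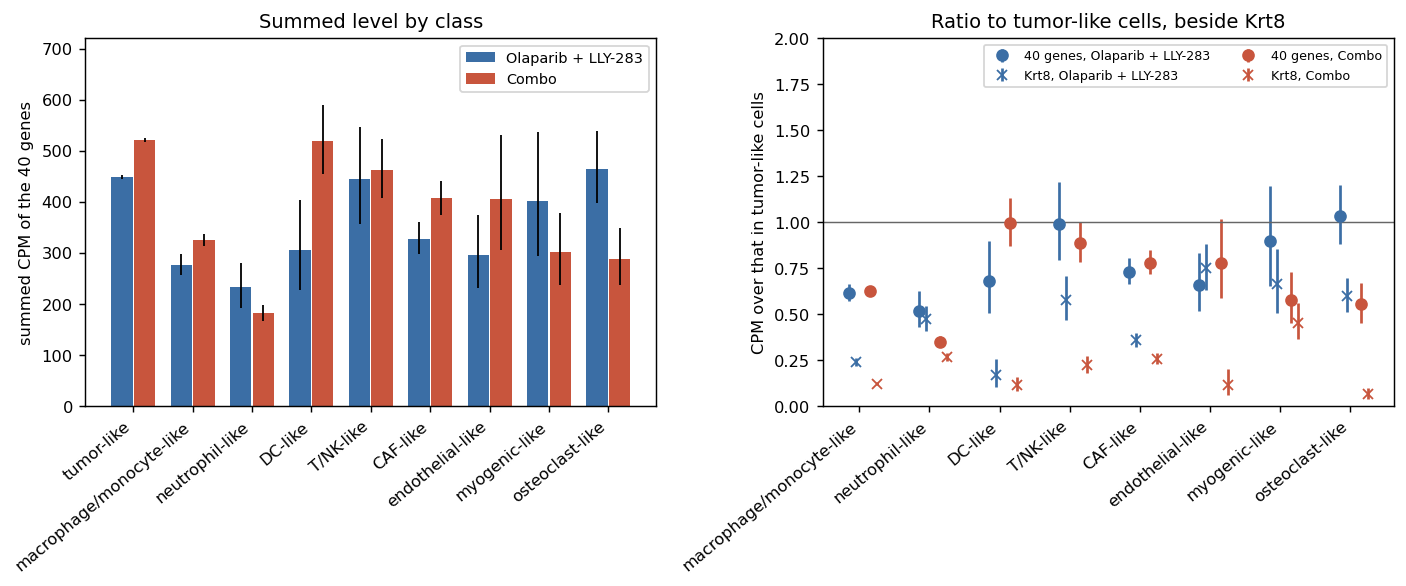
Left, summed CPM of the 40 genes in each class and library, with exact 95% Poisson intervals. Right, the same level over that in tumor-like cells (circles) beside the ratio of Krt8 (crosses), with exact 95% intervals. Neutrophil-like cells of Combo, at 182 CPM, lie lowest on the left, and the neutrophil-like circle of Olaparib + LLY-283, at 0.520, lies beside its cross at 0.474.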

How the data were processed

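The authors deposited, per library, a matrix of raw UMI counts per gene and cell, with no normalization, from pooled tumors sequenced with the 10x Genomics 3′ chemistry and aligned to mm10. The header of the deposited matrices names Cell Ranger 6.1.2, and the submitters' processing notes name bcl2fastq 5.0.1 and Seurat 4.1.0. All 55450 gene identifiers are in GENCODE M21. Atr, Exo1, Rpa1, Bard1, Brca2, Rad54b, Fancc and Fancl overlap other genes on the same strand (Fsbp for Rad54b), so their counts could be split and are less certain.

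Cells were kept from 200 detected genes upward and below 20% of mitochondrial UMIs, in Python 3.11.15 with scanpy 1.11.5, scipy 1.17.1, numpy 2.4.6 and pandas 2.3.3. The automatic Scrublet threshold marked only 2 and 69 cells, so the cells with the highest Scrublet scores were removed up to the expected share of 0.8% per 1000 cells (2055 and 284 cells), leaving 13974 and 5672. These were clustered jointly by the Leiden method (leidenalg 0.10.2, resolution 1.3, 2000 variable genes, 30 principal components, 20 neighbors) without the members and the other repair genes, giving 22 clusters. A cluster was named from marker lists where its markers had a mean log2 fold of at least 1 over other cells, with at least 3 over 2-fold higher. Leading genes of another class, or a depth under the limit for its library without its own markers leading, left a cluster without that name. Tumor-like clusters had no other name, were not of low depth and had at least 3 of 5 tumor markers over 2-fold above the macrophage/monocyte-like cluster, and 971 and 747 cells of low depth stayed unnamed. The doublet rule and the naming rules were chosen with the data in view. T with NK clusters, and macrophage with monocyte clusters, were joined.

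Phases were scored per library within tumor-like cells. CPM have exact Poisson intervals, ratios exact conditional binomial intervals and shares Clopper-Pearson intervals, all at 95%. Called means at least 1.5-fold among genes with at least 100 UMIs over the cells compared, with the phase genes left out of phase comparisons. All 40 members are reported, and of other lists at most the 3 genes with the largest ratios in each direction. The ratio and its interval were tested on simulated counts. An item of the further pathway genes is not reported here by name. The members and lists were chosen with earlier results of these data known. Figures were drawn with matplotlib 3.10.9.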

Additional observations from a re-analysis of the deposited data

Results flagged for a closer look

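The 40 genes were also present in cells that the comparisons left out, each above the limit that a count of 0 allows. In the unnamed cells of low depth, with keratin expression, they summed to 465 CPM in Olaparib + LLY-283 (971 cells) and 415 CPM in Combo (747 cells), with all 40 detected. In cells with at least 200 genes and 20% or more mitochondrial UMIs they summed to 369 CPM (81 cells, 21 UMIs) and 329 CPM (1582 cells, 458 UMIs). In the removed doublets they summed to 464 CPM (2055 cells) and 496 CPM (284 cells). No member had an S or G2M over G1 interval above 1 in one library and below 1 in the other.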

How the results depend on the processing

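Of 99 values recomputed under other settings, 65 stayed within the counting interval of the value above or, for counts, within 1.5 times of it, 33 moved and 1 changed direction. The summed S over G1 ratio stayed above 2 in both libraries: 2.22 and 2.50 with classes from marker UMIs of each cell (thinned to 2000 UMIs), 2.13 and 2.33 with phases called at 3000 UMIs, 2.18 and 2.57 with every other phase gene, and in Combo 2.57 with the mean of single-cell CPM, 2.54 in cells with 5000 to 30000 UMIs and 2.69 with phases from shares of UMIs. Counts of members higher in S or G2M fell to 3 and 2 in Combo at 5000 to 30000 UMIs, where 5 members had 100 UMIs and 1 of them was at least 1.5-fold lower in S, and to 17 in S in Olaparib + LLY-283 with classes from marker UMIs, where 29 did. The Combo over Olaparib + LLY-283 ratio was 1.18 with marker UMIs, 1.13 with single-cell CPM, 1.20 at equal phase shares and 1.12 in thinned cells, and it reversed to 0.726 at 5000 to 30000 UMIs. The members past 1.5-fold, 0 above, were then 3, 1, 1, 2 and 19. Macrophage/monocyte-like over tumor-like was 0.704 in Olaparib + LLY-283 with doublets kept, 0.687 and 0.93 at 5000 to 30000 UMIs and, in Combo, 0.660 with marker UMIs and 0.679 with single-cell CPM. Neutrophil-like over tumor-like was 0.891 and 0.565 with doublets kept, 0.778 and 0.522 with marker UMIs, 0.212 and 0.480 at 5000 to 30000 UMIs and 0.420 in Combo with single-cell CPM. Except where the number of members with 100 UMIs is given, the cause was not tested. No paired analysis was possible because each group has 1 library, and no replicate could be left out. Depth limits the low members in G1 and the classes of under 100 cells.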
